A study of Homo sapiens with 6 samples.

Results

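The genes described here carry cystine into the cell and make, renew, spend and break down glutathione: SLC7A11, GCLC, GCLM, GSS, GSR, CHAC1, GGCT, GPX1, GPX4 and GSTP1. They were taken by symbol from the count table, which holds all 10 of them among its 60649 genes, and all 10 were expressed enough to test. All cells were of the established line 786-O, derived from a human renal carcinoma of the clear cell type and grown in RPMI-1640 with serum. They carried one of 2 short hairpins that target LINC02068, a long non-coding RNA (groups shRNA1 and shRNA2, labelled LINC02068 knockdown), or a control hairpin (group shControl, labelled WT). No other treatment was given to any group, and each of the 3 groups had 2 libraries. The labels do not say whether replicates were separate cultures, whether the hairpin lines were clones or pools, or how long the hairpins had been expressed, so the p-values below may reflect technical spread alone. In such bulk RNA, fewer cells of a kind and less RNA per cell cannot be told apart. The title of the study ties LINC02068 to oxidative phosphorylation and the response to therapy, and the comparison asked here is how transcripts of the glutathione system stood with either hairpin.

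Glutathione is the main small thiol of the cell, a tripeptide of glutamate, cysteine and glycine, and cysteine is usually the scarce part. SLC7A11 pairs with SLC3A2 in system xc-, which takes in cystine and gives out glutamate, and cystine is reduced to cysteine inside the cell. Glutathione peroxidases use glutathione to reduce peroxides, and GPX4 does so for lipid peroxides in membranes, which protects cells from ferroptosis, a form of death by iron-driven lipid oxidation. Clear cell renal carcinoma cells are known to be sensitive to loss of GPX4.

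Libraries held 15376448 and 19838400 counts with shRNA1, 37311846 and 21803883 with shRNA2, and 17266828 and 26277068 in shControl, so that 1 CPM, the unit used below, stood for 14.9 to 36 counts. CPM is a count scaled to library size and by TMM, a correction for differences in RNA composition between libraries. LINC02068 had 9 and 2 counts with shRNA1, 17 and 10 with shRNA2, and 20 and 32 in shControl, and its fall passed the test in the mean of both hairpins (log2 fold change −1.46 ± 0.59 SE, edgeR adjusted p = 0.0447), but with neither hairpin alone (edgeR adjusted p = 0.069 for shRNA1 and 0.148 for shRNA2). All 9 markers of renal carcinoma cells were expressed, among them the kidney factor PAX8, at a mean of 322 CPM with shRNA1, 334 CPM with shRNA2 and 307 CPM in shControl. Of these markers 7 were called higher and 1 lower in the mean of both hairpins, where 28.6% of all tested genes were called higher and 28.9% lower. Scaled by total counts without TMM, 5 markers were higher and 1 lower, and PAX8 lost its call. The lower one, EPAS1, which encodes HIF-2 alpha and is named after its values were seen, had a mean of 281 CPM with shRNA1, 283 CPM with shRNA2 and 550 CPM in shControl. Of 15 markers of other cell types 9 had no count in any library, PTPRC, CD3E and CDH5 among them. Summed over those 15, the level was 46.0 to 52.2 CPM with shRNA1, 44.5 to 47.3 CPM with shRNA2 and 44.2 to 48.0 CPM in shControl, most of it CD68.

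The transcripts of the cystine importer SLC7A11 and of CHAC1, which breaks glutathione down, fell to 8.34% and 8.8% of the control level in the mean of both hairpins, transcripts of the enzymes of glutathione synthesis fell by smaller steps, and those of the enzymes that renew and use glutathione rose. In the mean of both hairpins against shControl, 5 of the 10 genes were called higher and 5 lower by edgeR's quasi-likelihood test at an adjusted p under 0.05. Over all 16039 tested genes 57.5% were called, 28.6% higher and 28.9% lower, so calls as such were common and the sizes below carry the description. A fall of more than 1 log2 unit was rarer, at 8.09% of tested genes, and among the 10 genes SLC7A11 and CHAC1 reached it. A rise of that size was seen in 4.61% of tested genes, while the highest among the 10 was 0.68, for GSTP1. Smaller steps were common: 2727 tested genes had a lower fold change than GCLC, 5295 than GCLM and 5780 than GSS. Genes with a higher fold change numbered 3532 for GSR, 3159 for GPX4, 2776 for GPX1 and 2166 for GSTP1. With shRNA1 alone 4 of the 10 were higher and 5 lower (52.4% of all tested genes called, 26.8% higher and 25.6% lower). With shRNA2 alone 5 were higher and 5 lower (52.8% called, 26.7% higher and 26.1% lower). For 9 of the 10 genes the 4 knockdown libraries all lay on one side of both shControl libraries, as they did for 67.0% of tested genes. The median log2 fold change of the 10 was −0.02, beside −0.03 for all tested genes. Scaled by total counts in place of TMM, the median of all tested genes was −0.18, and 36% of called genes were higher against 49.7% with TMM; no gene of the 10 changed sign.

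**Figure D1:**
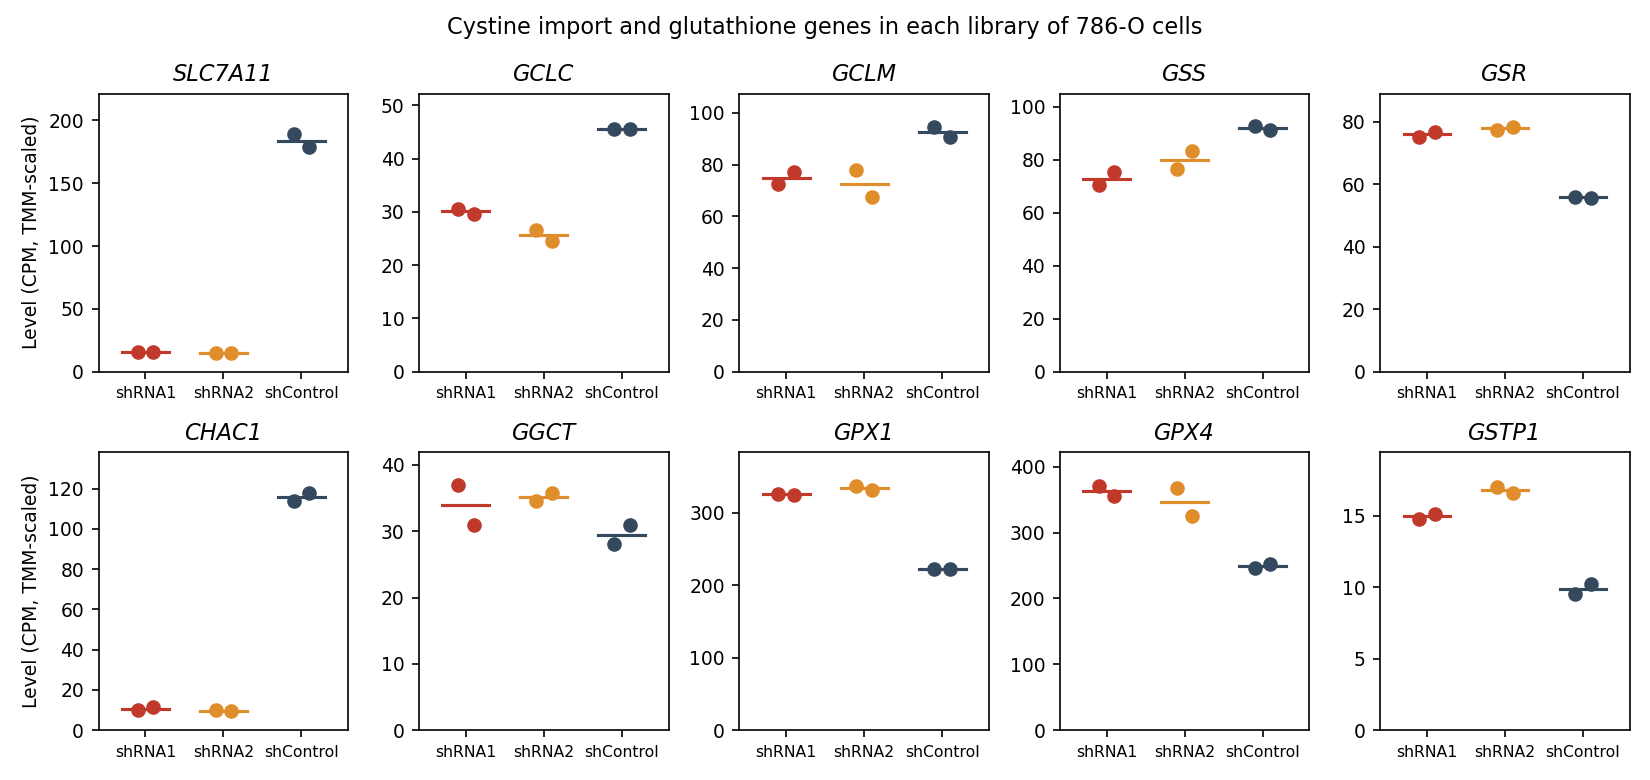
Level of each gene in every library, in CPM on a linear axis that starts at 0, with 2 points per group and a bar at their mean. SLC7A11 and CHAC1 sit at 9.38 to 15.8 CPM in the knockdown libraries and at 114 to 189 CPM in shControl, while GSR, GPX1, GPX4 and GSTP1 are higher in every knockdown library than in shControl.

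SLC7A11, the cystine and glutamate exchanger (ENSG00000151012.13; chromosome 4, 138164097 to 138242349, minus strand, GENCODE 29 on GRCh38), had 234 and 303 counts with shRNA1, 534 and 311 with shRNA2, and 3521 and 5027 in shControl. That is 15.7 and 15.8 CPM with shRNA1, 14.8 and 14.9 CPM with shRNA2, and 189 and 179 CPM in shControl. The hairpin libraries lay close together and far below both controls, at a mean of 8.34% of the control level. The log2 fold change was −3.54 ± 0.07 (SE) with shRNA1 and −3.63 ± 0.07 with shRNA2 (edgeR adjusted p = 9.4e-15 and 5.3e-15), and only 81 of the tested genes had a lower fold change in the mean of both hairpins. Replicates differed by at most 0.07 on the log2 scale. An antisense gene, SLC7A11-AS1, shares 865 exonic bases with SLC7A11 and had 0 counts in each of the 4 knockdown libraries and 4 and 11 counts in shControl. The strand setting of the counting is unknown, so reads of the pair cannot be told apart. The antisense counts are few beside those of SLC7A11, but they do not bound how many antisense reads were credited to SLC7A11 or dropped.

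SLC3A2, the heavy chain that brings SLC7A11 to the membrane and also serves SLC7A5, fell as well, but by less. It had 117 and 118 CPM with shRNA1, 126 and 114 CPM with shRNA2, and 531 and 516 CPM in shControl (log2 fold change −2.14 ± 0.04 in the mean of both hairpins, edgeR adjusted p = 1.3e-15). The ratio of SLC7A11 counts to SLC3A2 counts was 0.134 and 0.135 with shRNA1, 0.118 and 0.131 with shRNA2, and 0.356 and 0.347 in shControl. The importer's own transcript was thus lower relative to its partner in every knockdown library. This ratio was not tested.

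CHAC1, a cytosolic enzyme that splits glutathione into oxoproline and cysteinylglycine (ENSG00000128965.13; chromosome 15, 40952962 to 40956519, plus strand), followed SLC7A11 most closely. It had 10.1 and 11.3 CPM with shRNA1, 10.1 and 9.38 CPM with shRNA2, and 114 and 118 CPM in shControl. The groups were far apart, with 151 to 362 counts per knockdown library and 2127 and 3299 counts in the controls. Its log2 fold change was −3.43 ± 0.09 with shRNA1 and −3.57 ± 0.09 with shRNA2 (edgeR adjusted p = 1.6e-13 and 6.0e-14). Genes were also ranked by how closely they followed SLC7A11 over the 6 libraries; the search covered 12591 other named genes whose mean level was 2 CPM or more, and CHAC1 had the smallest root mean square difference from SLC7A11 in centred log2 CPM, 0.078. The next were ASNS, asparagine synthetase (0.117), SCG5, a secretory chaperone (0.138), NOG, the BMP antagonist noggin (0.156), and ADM2, an adrenomedullin-like hormone (0.229). With 2 libraries a group, this likeness is mainly one of the step between the hairpins and the controls.

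CHAC1 and SLC7A11 are known targets of the transcription factor ATF4, which acts when amino acids run short. GCLC, GCLM and GSTP1 are known targets of NRF2, the factor of the antioxidant response. These sets are not complete, and a gene can belong to both. Promoters of 6 of the 10 genes were found in RefSeq (GRCh38.p14, 250 bases before the start to 50 after it), those of GCLC, GCLM, CHAC1, GPX1, GPX4 and GSTP1. They were searched on both strands for TGATGNAA, the core of an ATF4 element, for TGACNNNGC, the core of an antioxidant response element, and for ACGTG, the core of a hypoxia response element. The ATF4 core was present in 1 of the 6, CHAC1, and in 3.67% of all 27305 promoters of that length. The antioxidant core was present in 2 of the 6, GCLM and GSTP1, against 13.6% of all, and the hypoxia core in GPX1 and GPX4, against 21.6% of all. GPX1 held the hypoxia core on both strands of the same few bases. The 3 promoters with an ATF4 or antioxidant core are printed to show it in place, 5′ to 3′ on the gene's strand, with the match in capitals. CHAC1 fell, GCLM fell by little and GSTP1 rose. The antioxidant core was found in only 2 genes, and the fall of GCLM was not called in every setting. A link between a core and the direction of change was not tested. A match of letters does not show that a factor binds.
CHAC1, chr15:40953221-40953520, plus strand: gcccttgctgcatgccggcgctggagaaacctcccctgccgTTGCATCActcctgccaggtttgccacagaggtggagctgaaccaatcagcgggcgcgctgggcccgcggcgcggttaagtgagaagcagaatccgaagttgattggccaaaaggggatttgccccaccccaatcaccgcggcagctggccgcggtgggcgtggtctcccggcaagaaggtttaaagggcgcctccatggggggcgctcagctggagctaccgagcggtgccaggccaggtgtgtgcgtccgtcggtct
GCLM, chr1:93909381-93909680, minus strand: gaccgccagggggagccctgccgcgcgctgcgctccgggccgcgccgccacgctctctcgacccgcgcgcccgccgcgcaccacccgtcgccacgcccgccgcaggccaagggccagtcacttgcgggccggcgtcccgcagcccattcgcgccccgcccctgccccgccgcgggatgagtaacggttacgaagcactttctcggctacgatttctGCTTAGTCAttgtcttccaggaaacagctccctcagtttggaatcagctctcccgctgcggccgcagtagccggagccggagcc
GSTP1, chr11:67583562-67583861, plus strand: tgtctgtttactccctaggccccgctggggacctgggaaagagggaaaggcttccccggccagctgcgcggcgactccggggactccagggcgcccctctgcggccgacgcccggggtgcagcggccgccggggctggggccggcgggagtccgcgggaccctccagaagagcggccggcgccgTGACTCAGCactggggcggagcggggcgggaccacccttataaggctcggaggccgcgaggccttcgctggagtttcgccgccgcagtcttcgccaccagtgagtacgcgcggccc

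Measured at the factors themselves, ATF4 had 199 and 222 CPM with shRNA1, 201 and 214 CPM with shRNA2, and 405 and 414 CPM in shControl (log2 fold change −0.97 ± 0.04, edgeR adjusted p = 2.0e-10). NFE2L2, which encodes NRF2, had 89.6 and 90.9 CPM with shRNA1, 82.2 and 83.4 CPM with shRNA2, and 115 and 118 CPM in shControl (−0.43 ± 0.04, edgeR adjusted p = 5.4e-07). The transcripts of both factors were lower in every knockdown library than in either control. Their part in the fall of SLC7A11 and CHAC1 was not tested, and protein levels and activity of these factors were not measured.

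Transcripts of the enzymes of glutathione synthesis fell by unequal steps. GCLC, the catalytic subunit of glutamate-cysteine ligase, which makes the first and rate-limiting bond (ENSG00000001084.13; chromosome 6, 53497341 to 53616970, minus strand), had 30.6 and 29.7 CPM with shRNA1, 26.7 and 24.6 CPM with shRNA2, and 45.5 and 45.6 CPM in shControl. All knockdown libraries were below the controls. The shRNA2 pair was below the shRNA1 pair, a difference that was not called between the hairpins (edgeR adjusted p = 0.916). The log2 fold change was −0.60 ± 0.08 with shRNA1 and −0.83 ± 0.08 with shRNA2 (edgeR adjusted p = 2.5e-05 and 6.2e-07).

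GCLM, the modifier subunit that raises the ligase's affinity for glutamate (ENSG00000023909.10; chromosome 1, 93885205 to 93909456, minus strand), had 72.6 and 77.1 CPM with shRNA1, 78.1 and 67.3 CPM with shRNA2, and 94.6 and 90.7 CPM in shControl. The groups did not overlap, but the step was small beside that of GCLC. Averaged over the hairpins, GCLM had a log2 fold change of −0.33 ± 0.06 (edgeR adjusted p = 2.9e-04). It was −0.12 and no longer called once a trend on transcript length and GC content was removed (edgeR adjusted p = 0.106), and it did not pass a test against a fold of 1.2 (adjusted p = 0.121). The ratio of GCLC counts to GCLM counts was 0.422 and 0.385 with shRNA1, 0.342 and 0.366 with shRNA2, and 0.481 and 0.503 in shControl. So the catalytic subunit was lower relative to the modifier in all 4 knockdown libraries, a ratio that was not tested.

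GSS, glutathione synthetase, which adds glycine in the last step (ENSG00000100983.12; chromosome 20, 34928433 to 34956027, minus strand), had 70.5 and 75.2 CPM with shRNA1, 76.5 and 83.3 CPM with shRNA2, and 92.6 and 91.0 CPM in shControl. All 4 knockdown libraries were below the controls. The shRNA1 pair was below the shRNA2 pair, the reverse of GCLC, but the log2 difference was not called (−0.13 ± 0.06, edgeR adjusted p = 0.918). The hairpin pairs were also apart for SLC7A11, CHAC1, GSR, GPX1 and GSTP1, so such a gap was common among the 10 genes. GSS had a log2 fold change over both hairpins of −0.27 ± 0.05 (edgeR adjusted p = 5.3e-04). It was −0.42 under total counts and did not pass the test against a fold of 1.2 (edgeR adjusted p = 0.384).

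Transcripts of GSR, GPX1, GPX4 and GSTP1, whose products renew or use glutathione, rose. GSR, glutathione reductase, which turns oxidised glutathione back with NADPH (ENSG00000104687.14, chromosome 8), had 75.0 and 76.8 CPM with shRNA1, 77.4 and 78.3 CPM with shRNA2, and 56.0 and 55.5 CPM in shControl. Replicates differed by no more than 0.03 on the log2 scale, far less than the distance between the hairpins and the controls. With the hairpins averaged, GSR had a log2 fold change of 0.46 ± 0.05 (edgeR adjusted p = 1.9e-06).

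GPX1, the main cytosolic glutathione peroxidase (ENSG00000233276.8; chromosome 3, 49357171 to 49358600, minus strand), had 326 and 325 CPM with shRNA1, 337 and 331 CPM with shRNA2, and 222 CPM in each shControl library. GENCODE 29 types this gene as a polymorphic pseudogene and the other 9 as protein-coding. Its log2 fold change came to 0.57 ± 0.03 (edgeR adjusted p = 3.2e-10), with all knockdown libraries above the controls, and the replicates of each group were within 0.02 of each other on the log2 scale. A pseudogene, GPX1P1, could share reads with it, but was at 2.49 to 4.60 CPM in the knockdown libraries and 5.69 and 4.46 CPM in shControl and was not called (−0.50 ± 0.24, edgeR adjusted p = 0.0905). GPX4, which reduces lipid peroxides (ENSG00000167468.18; chromosome 19, 1103926 to 1106791, plus strand), had 371 and 356 CPM with shRNA1, 368 and 326 CPM with shRNA2, and 246 and 252 CPM in shControl. Every knockdown library was above the controls (0.51 ± 0.05, edgeR adjusted p = 1.0e-06). The ratio of GPX4 counts to GPX1 counts stayed at 0.984 to 1.14 with the hairpins and was 1.11 and 1.13 in shControl.

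GPX1 and GPX4 share a feature that their selection did not use, a UGA codon that is read as selenocysteine and forms the active site. The 39 bases around it are shown from GENCODE 29 transcripts, with the codon in capitals. It lies at chr3:49358132-49358134 on the minus strand in GPX1 and at chr19:1105403-1105405 on the plus strand in GPX4 (GRCh38), and 23 of the 39 bases are identical between the genes.
GPX1: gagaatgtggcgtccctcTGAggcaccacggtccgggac
GPX4: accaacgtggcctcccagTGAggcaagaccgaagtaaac

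Genes tied to selenium uptake, to selenocysteine and to its insertion at such codons were taken as a broad list of 9. Of these 6 were called higher, 1 lower and 2 not called (median log2 fold change 0.52, against −0.03 for all tested genes). Over all tested genes 28.6% were called higher and 28.9% lower. With DESeq2 5 of the 9 were higher and 1 lower, and under total counts 5 were higher and 2 lower (median 0.36). SEPHS1 (0.77 ± 0.05) and SEPHS2, the selenophosphate synthetase (0.76 ± 0.07), rose, and so did LRP8, a receptor that takes up selenoprotein P (0.93 ± 0.10; edgeR adjusted p = 1.7e-09, 1.7e-07 and 5.5e-07). SEPSECS, which makes selenocysteinyl-tRNA in the last step, was the lower gene, named after its values were seen. It had 2.75 and 1.93 CPM with shRNA1, 3.20 and 2.01 CPM with shRNA2, and 12.0 and 7.42 CPM in shControl (−1.96 ± 0.25, edgeR adjusted p = 1.0e-05).

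GSTP1 is a transferase that couples glutathione to electrophiles (ENSG00000084207.18, chromosome 11, 67583595 to 67586656, plus strand). Its mean level over the 6 libraries was near the middle of the tested genes, with 54% of them above it. GSTP1 had 14.8 and 15.1 CPM with shRNA1, 17.0 and 16.6 CPM with shRNA2, and 9.55 and 10.2 CPM in shControl, from 178 to 611 counts per library. The groups did not overlap, and its log2 fold change of 0.68 ± 0.11 (edgeR adjusted p = 7.4e-05) was the highest estimate among the 10 genes, with a wider error than that of GPX1.

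GGCT, a cyclotransferase that turns gamma-glutamyl amino acids into oxoproline (ENSG00000006625.18; chromosome 7, 30496621 to 30504844, minus strand), had 37 and 31 CPM with shRNA1, 34.5 and 35.8 CPM with shRNA2, and 28 and 31 CPM in shControl. One shRNA1 library lay at the level of the higher control, so the groups overlapped, unlike those of the other 9 genes. It was called in the mean of both hairpins (0.22 ± 0.09, edgeR adjusted p = 0.0367) and with shRNA2 (0.25 ± 0.10, 0.0429) but not with shRNA1 (0.20 ± 0.10, 0.111). The call rested on single libraries and settings: it was lost without shRNA1 replicate 1 (0.18, 0.0971), shRNA2 replicate 1 (0.23, 0.0607), shRNA2 replicate 2 (0.21, 0.0946) or shControl replicate 1 (0.14, 0.292). It was also lost with DESeq2 (adjusted p = 0.0840), without a filter on low counts (edgeR adjusted p = 0.0586) and under total counts (0.07, 0.514). CHAC1 and GGCT both yield oxoproline, and the ratio of their counts was 0.275 and 0.366 with shRNA1, 0.291 and 0.262 with shRNA2, and 4.07 and 3.79 in shControl.

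**Figure D2:**
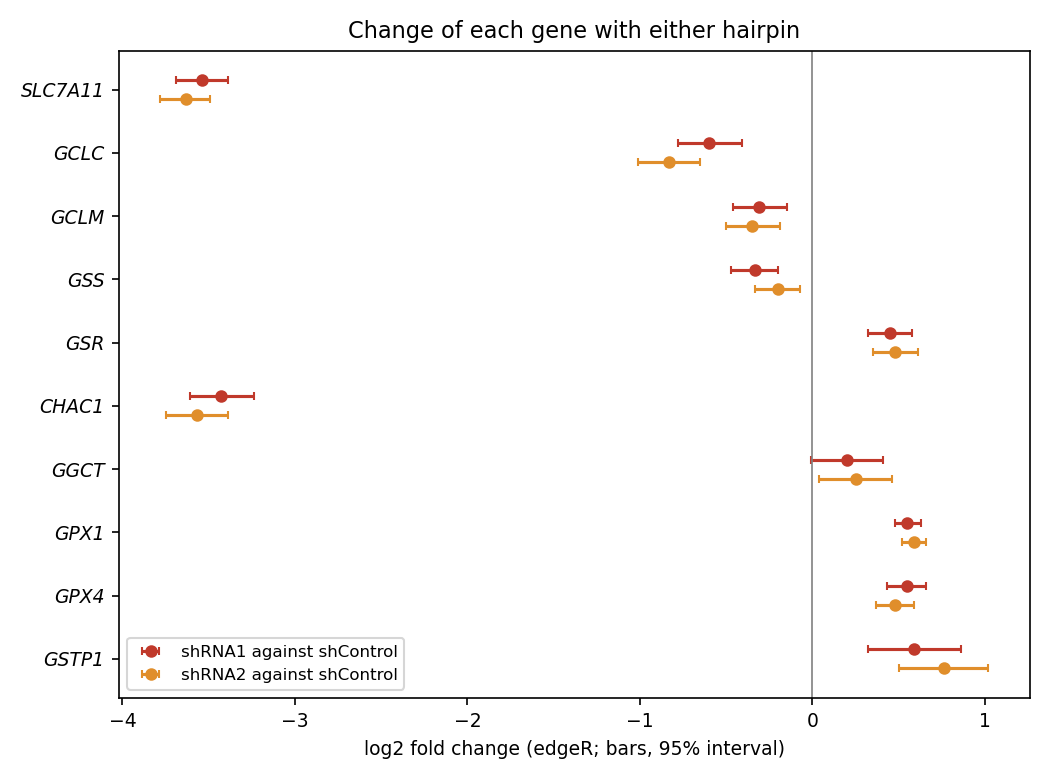
Log2 fold change of each gene with shRNA1 and with shRNA2, both against the same 2 shControl libraries, with 95% intervals from edgeR's fit. The intervals of both hairpins lie below 0 for SLC7A11, CHAC1, GCLC, GCLM and GSS and above 0 for GSR, GPX1, GPX4 and GSTP1, while that of GGCT with shRNA1 runs from −0.01 to 0.41.

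The hairpins were compared directly, since both fold changes rest on the same controls. Set against shRNA2, none of the 10 genes was called with shRNA1 by edgeR or by DESeq2, and 0.0312% of all tested genes were called, 0.00623% higher and 0.0249% lower. At an unadjusted p under 0.05 edgeR marked 1 of the 10, GCLC, and DESeq2 none, beside 5.44% of all tested genes in edgeR. The log2 difference of GCLC, shRNA1 minus shRNA2, was 0.23, with a 95% interval from 0.05 to 0.41 and an edgeR adjusted p of 0.916. For SLC7A11 the difference was 0.09 (interval −0.07 to 0.25), for CHAC1 0.14 (−0.06 to 0.35), for GPX4 0.06 (−0.05 to 0.18) and for GSTP1 −0.17 (−0.43 to 0.09). These intervals leave room for modest differences between the hairpins. Those of SLC7A11 and CHAC1 were small beside their distance from the controls.

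Divided by exon length, levels can be set beside each other within a group. Exon lengths were taken over all isoforms in GENCODE 29, so a gene with long or rare isoforms appears lower. With shRNA1 GPX1 led at 228 CPM per kb and GPX4 followed at 180, CHAC1 stood eighth at 5.22 and SLC7A11 last at 1.64. With shRNA2 the order was the same, with GPX1 at 233, GPX4 at 172, CHAC1 at 4.72 and SLC7A11 at 1.54 CPM per kb. The libraries of GGCT and GSR overlapped with shRNA1 (21.3 and 20.2 CPM per kb) and those of GCLM and GSS with shRNA2 (13.4 and 12.9), so these neighbours did not differ beyond their spread. In shControl GPX1 and GPX4 also led, at 155 and 123 CPM per kb, before CHAC1 at 56.3, SLC7A11 at 19.1, GGCT at 18.5, GCLM at 17.1, GSS at 14.9, GSR at 14.8, GCLC at 5.27 and GSTP1 at 5.18. There the libraries of SLC7A11 and GGCT, of GSS and GSR, and of GCLC and GSTP1 overlapped. Other neighbours did not overlap, though GGCT and GCLM in shControl were only 1.03 of the larger SD apart.

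**Figure D3:**
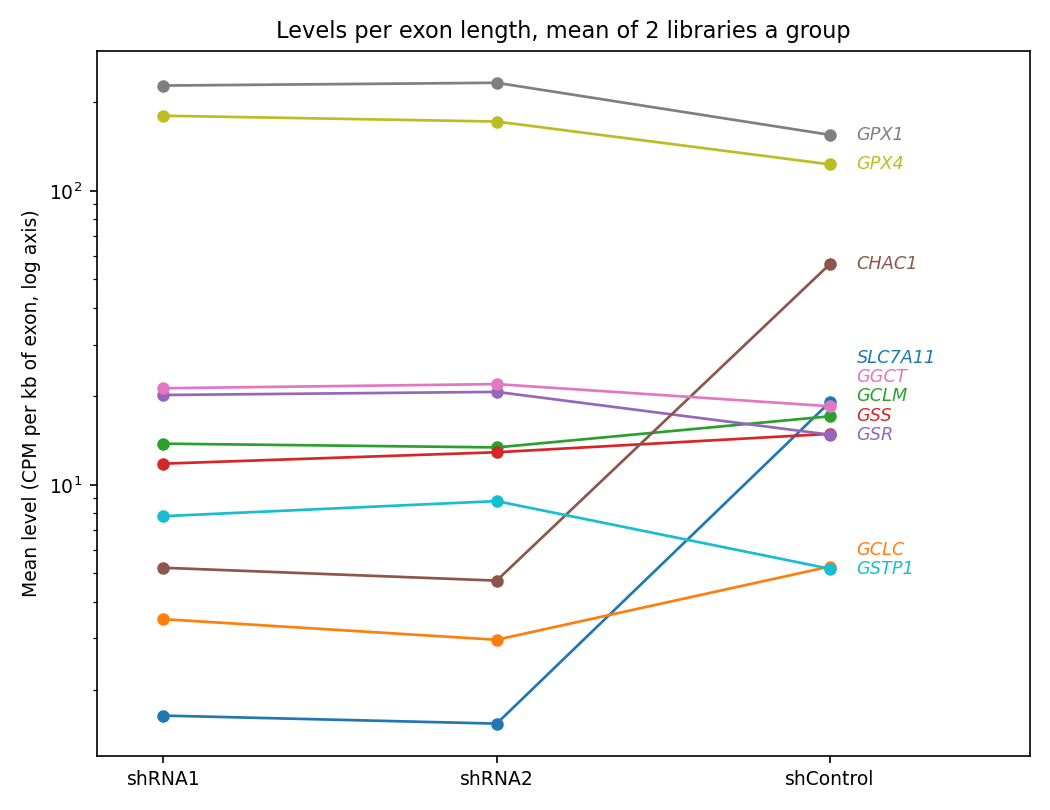
Mean level of each gene per kb of exon, on a log axis, in shRNA1, shRNA2 and shControl (2 libraries each, joined by lines to aid the eye). CHAC1 and SLC7A11 cross most other genes between the hairpins and shControl, while GPX1 and GPX4 stay on top in all groups.

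Other genes of the pathway were counted in lists chosen with earlier results of these data known. Over all tested genes 28.6% were called higher and 28.9% lower, and the counts of each list below stand beside those shares. In a broad list drawn up around cysteine supply most genes were lower: of 12 tested 3 were higher, 7 lower and 2 not called (median −0.35). Not every gene on it supplies cysteine directly. CTH, the lyase that releases cysteine at the end of the transsulfuration route, had 10.4 and 8.89 CPM with shRNA1, 8.56 and 8.28 CPM with shRNA2, and 58.4 and 54.2 CPM in shControl (−2.64 ± 0.09, edgeR adjusted p = 1.2e-12). SLC1A5, a neutral amino acid carrier, fell by 1.55 ± 0.03 on the log2 scale (edgeR adjusted p = 8.7e-15). The higher genes, named after their values were seen, were AHCY (0.64 ± 0.04), MTR (0.33 ± 0.06) and TST (0.34 ± 0.07). AHCY and MTR act in the methionine cycle. Transcripts of SLC7A11, for cystine import, and of CTH, for cysteine release, were thus both lower. SLC1A1, a carrier on the same list named after its values were seen, was not called (0.20 ± 0.24, edgeR adjusted p = 0.517).

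Among other genes of glutathione turnover 2 of 9 tested were higher, 4 lower and 3 not called (median −0.03). LAP3, a leucine aminopeptidase, rose by 0.69 ± 0.06 and ANPEP, a surface aminopeptidase that cleaves cysteinylglycine, by 0.20 ± 0.03 on the log2 scale, while NIT1, which repairs deaminated glutathione, fell by 0.60 ± 0.08 (edgeR adjusted p = 1.3e-07, 5.3e-05 and 1.9e-05). CHAC2, the paralogue of CHAC1 with steady low activity, was at 5.12 and 4.21 CPM on average with shRNA1 and shRNA2 and at 3.39 CPM in shControl, and was not called (0.45 ± 0.21, edgeR adjusted p = 0.0874; named after its values were seen).

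Of the other peroxidases 2 of 6 were expressed enough to test. GPX8, an endoplasmic reticulum member that lacks selenocysteine, rose to 46.4 and 45.1 CPM with shRNA1 and 44.5 and 44.7 CPM with shRNA2, against 24.8 and 27.2 CPM in shControl (0.79 ± 0.07, edgeR adjusted p = 1.5e-07). GPX3, the plasma form, had a mean of 0.762 CPM with shRNA1, 0.803 CPM with shRNA2 and 1.08 CPM in shControl and was not called (−0.44 ± 0.46, adjusted p = 0.443). Among the other glutathione S-transferases 7 of 12 tested were higher and 5 not called (median 0.30). Under total counts 5 were higher and 1 lower. MGST2, a membrane enzyme that also makes leukotriene C4, had 4.30 and 5.44 CPM with shRNA1, 4.97 and 3.78 CPM with shRNA2, and 1.5 and 1.89 CPM in shControl (1.44 ± 0.25, edgeR adjusted p = 1.6e-04). GSTO1 (0.41 ± 0.06) and GSTK1 (0.31 ± 0.06) rose by less (edgeR adjusted p = 5.5e-05 and 2.4e-04). Genes of the alpha, mu and theta classes have close copies that can share reads, so their counts are uncertain.

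A mixed list held the glutaredoxins GLRX, GLRX2, GLRX3 and GLRX5, which act on protein thiols, the glyoxalases GLO1 and HAGH, which clear methylglyoxal, the esterase ESD, and PTGES and PTGES2, which encode prostaglandin E synthases. Of these 9 genes 6 were higher, 2 lower and 1 not called (median 0.27). PTGES2 (0.84 ± 0.07), GLRX3 (0.53 ± 0.06) and GLRX5 (0.64 ± 0.08), the GLRX pair being tied to iron-sulfur cluster supply, rose (edgeR adjusted p = 4.0e-08, 1.1e-06 and 2.6e-06). Under total counts 4 were higher and 3 lower. Of 9 genes of glutathione transport 5 were higher, 2 lower and 2 not called (median 0.18, and 0.02 under total counts). SLC25A39, the mitochondrial glutathione importer, had a mean of 318 CPM with shRNA1 and 324 CPM with shRNA2, against 155 CPM in shControl (1.05 ± 0.03, edgeR adjusted p = 1.1e-12), whereas its paralogue SLC25A40 fell by 0.51 ± 0.08 (adjusted p = 8.1e-05; named after its values were seen). SLC25A10, the dicarboxylate carrier, rose by 1.5 ± 0.06, and ABCC3, an exporter of conjugates, fell by 0.45 ± 0.03 (edgeR adjusted p = 4.8e-11 and 1.1e-08).

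In the ferroptosis list 8 of 20 tested genes were higher, 3 lower and 9 not called (median 0.06). Of all tested genes 28.6% were called higher and 28.9% lower, so calls were about as common outside the list. Under total counts 6 were higher and 5 lower and the median turned to −0.10, and with the length and GC trend removed 12 were higher and 2 lower (median 0.23). The iron-storing ferritin chain FTH1 averaged 3820 CPM with shRNA1 and 3710 CPM with shRNA2, against 2320 CPM in shControl (0.70 ± 0.03, edgeR adjusted p = 9.9e-12). HSPB1, a small heat shock protein, rose by 1.71 ± 0.03, and CARS1, cysteinyl-tRNA synthetase, fell by 1.24 ± 0.05 (edgeR adjusted p = 9.0e-16 and 1.9e-11). LPCAT3 (1.15 ± 0.10) and TFRC (0.63 ± 0.04) were also among the higher genes (edgeR adjusted p = 4.9e-07 and 1.4e-09). ACSL4, which loads polyunsaturated fatty acids into lipids, was not called (−0.01 ± 0.04, adjusted p = 0.891), nor was AIFM2, the ubiquinone reductase FSP1 (0.05 ± 0.18, adjusted p = 0.848). LPCAT3, TFRC, ACSL4 and AIFM2 were named after their values were seen, and neither ferroptosis nor glutathione itself was measured.

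Regulators of these genes were lower in 10 of 13 cases, higher in 2 and not called in 1 (median −0.97). TRIB3, a pseudokinase induced by ATF4 (−1.95 ± 0.03), NUPR1, a stress-response coregulator (−2.84 ± 0.06), and MYC (−0.91 ± 0.03) fell (edgeR adjusted p = 1.3e-15, 2.3e-13 and 8.5e-13). The higher genes, named after their values were seen, were KEAP1, the adaptor that marks NRF2 for destruction (0.57 ± 0.05), and BAP1 (0.30 ± 0.04; edgeR adjusted p = 9.9e-08 and 4.9e-06).

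**Figure D4:**
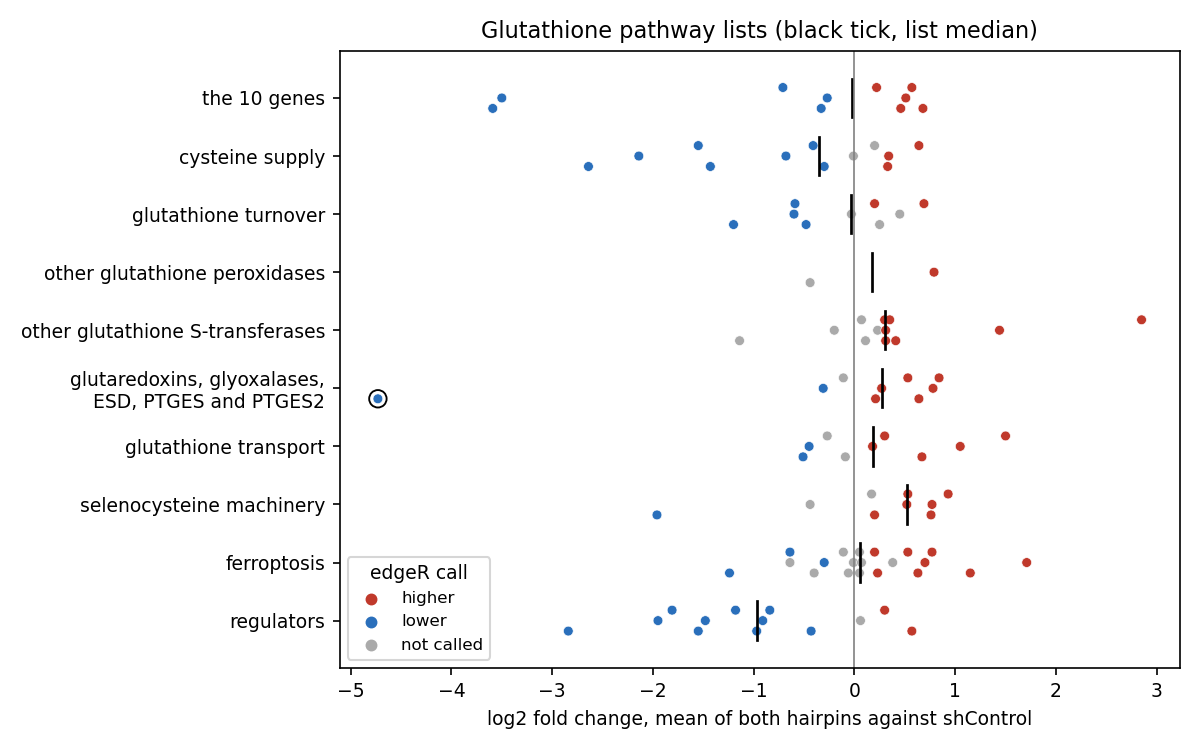
Log2 fold change in the mean of both hairpins of each tested gene of the 10 and of the pathway lists, coloured by edgeR call, with the list median as a black tick. The circled point is PTGES, which had no count with shRNA1, so its fitted value depends on the prior count and is no measure of size; medians run from −0.97 for regulators to 0.52 for the selenocysteine genes.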

How the data were processed

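The authors deposited whole-number counts per gene for 6 libraries in a single table. Per the submitters' processing notes, FastQC 0.11.9, Trim Galore 0.6.7, HISAT2 2.2.1, StringTie 2.2.1 and hg38 were used. The counting tool, annotation release, strand setting and treatment of shared reads are not named in those notes or labels. Per the labels, libraries were made from total RNA and sequenced paired-end.

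Genes passing filterByExpr (16039) were scaled by TMM and fitted over all 6 libraries with edgeR 4.0.16 (limma 3.58.1, R 4.3.3; robust quasi-likelihood, group means), with Benjamini-Hochberg adjustment over all tested genes. Contrasts were each hairpin and their mean against shControl, and shRNA1 against shRNA2. SE is the fold change over the root of F. Exon lengths, positions and GC content come from GENCODE 29, and promoters from RefSeq. The code was tested on simulated data.

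The 10 genes and the lists were chosen with earlier results of these data known. Named beside the 10 were up to 3 genes per list with the smallest p, SLC3A2, ATF4, NFE2L2, LINC02068, copies and antisense genes of members, and the 5 genes most like SLC7A11; others are marked. Alternatives were DESeq2 1.42.0, RLE or total-count scaling, library sizes without mitochondrial and ribosomal RNA, filters, a replicate block, a test against a fold of 1.2, fits to only the groups in a contrast, removal of a length and GC trend (mgcv 1.9.3; 15902 genes) and each library left out. Depth was 15376448 to 37311846 counts per library.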

Additional observations from a re-analysis of the deposited data

How the results depend on the processing

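Every alternative kept the direction of all 10 genes in the mean of both hairpins, and 139 of 150 single values also kept their side of the threshold. The 11 that lost it belong to GGCT, GCLM and GSS and stand in the report, but for GGCT against a fold of 1.2 (edgeR adjusted p = 0.589). SLC7A11 ran from −3.74 to −3.32, CHAC1 from −3.65 to −3.44, GCLC from −0.87 to −0.59, GPX1 from 0.42 to 0.60 and GPX4 from 0.36 to 0.55. The test against a fold of 1.2 left 3 genes lower in the mean, with shRNA1 and with shRNA2, against 5 each, by its stricter null. Leaving out a library in turn gave 4 to 5 genes higher and 5 lower in the mean of both hairpins, 4 to 5 higher and 5 lower with shRNA1, 4 to 5 higher and 4 to 5 lower with shRNA2, 0 between the hairpins by edgeR, and 7557 to 9020 called among all genes, against 9223. A library left alone in its group was taken to vary as the rest do. With a replicate block 5 genes were higher and 5 lower in the mean and 9170 of all genes were called. With the block 4 were higher and 5 lower with each hairpin, GGCT not passing with shRNA2 (0.25, edgeR adjusted p = 0.0520). Same-numbered libraries did not deviate together (correlations 0.00, 0.01 and −0.03), so no effect shared by number was seen. These correlations cannot show whether same-numbered libraries were prepared together, since a small shared effect could go unseen. Of the genes called in the pathway lists, none changed sign under DESeq2, RLE factors, total counts or the removed length and GC trend. Some lost their call: ANPEP, GSTZ1, MGST3, GLO1, ESD, ABCC4, EEFSEC, NCOA4 and POR under total counts, OPLAH, GLRX2, ABCC4 and EEFSEC with DESeq2, and MAT2B, OPLAH, GLRX2 and MBOAT2 with the length and GC trend removed. The renal marker PAX8 changed sign and lost its call under total counts, and the renal marker CDH2 lost its call there. The 2 libraries per group and the 178 to 287 control counts of GSTP1 limit the precision of small changes.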
